A study of Mus musculus with 12 samples.

Results

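The class 3 semaphorins Sema3a, Sema3c, Sema3d, Sema3e and Sema3f, the neuropilins Nrp1 and Nrp2 and the plexins Plxna2, Plxna4 and Plxnd1 were measured by bulk RNA-seq in the ventral spinal cord of E12.5 mouse embryos. These 10 genes were listed by symbol, with earlier results of these data known, and were found by their NCBI gene identifiers among the 45777 identifiers in the deposited tables. The tissue came from the brachial level, which supplies the forelimb, and the lumbar level, which supplies the hindlimb. It was cut around the motor neurons seen with Hb9::GFP, a transgene in which the promoter of a motor neuron homeobox gene drives a green fluorescent reporter, so other cells of the ventral cord remained in the samples. At each level, 3 libraries from Isl2 -/- embryos (Isl2 KO) were compared with 3 libraries from Isl2 +/- embryos, which served as controls and themselves lack a copy of the gene. Isl2 encodes a LIM homeodomain transcription factor of postmitotic motor neurons, and the null allele carries a neomycin cassette in place of exons. The 12 libraries are described as taken from 3 Isl2 +/- and 3 Isl2 -/- animals, so brachial and lumbar libraries may share embryos, although which ones do is not given. The study compared the genotypes at both levels to find genes that depend on Isl2 in the lumbar cord.

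Class 3 semaphorins are secreted proteins that steer growing axons, mostly by repelling them, and also guide blood vessels and migrating cells. Most of them bind a neuropilin, which holds the ligand, while a plexin paired with it carries the signal into the cell through its GTPase-activating domain. Sema3a acts mainly through Nrp1 and Sema3f mainly through Nrp2, and in the limb this division helps to sort motor axons between dorsal and ventral muscle. Sema3e is the exception in that it can bind Plxnd1 directly, and in the spinal cord it is known as a marker of particular motor pools, the groups of motor neurons that supply single muscles. Levels are given as TPM, the share of a gene among all transcripts of a library, scaled for transcript length, after rescaling between libraries. All 10 genes passed the minimum mean of 0.5 TPM that was set for testing.

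Aligned sequence per library ranged from 4.48 to 6.64 Gb, and 22983 to 24191 genes had a value above 0. Isl2 itself fell from 8.89 ± 0.713 to 5.91 ± 1.40 TPM at the brachial level and from 9.36 ± 0.937 to 7.34 ± 0.850 TPM at the lumbar level (SD, n = 3). Every Isl2 KO library lay below every control library of its level, and the remaining transcript is that of the whole gene, including any exons left in the null allele. The 8 motor neuron markers had mean values above 0.5 TPM, whereas all 6 skeletal muscle markers and 4 of 6 sensory neuron markers had means under it. Endothelial and blood genes were present, with summed levels of 73.0 to 114 TPM over 8 endothelial genes and 2367 to 6671 TPM over 8 blood genes. The blood genes had a median log2 difference between Isl2 KO and control libraries of 0.49 at the brachial level (none called) and 0.39 at the lumbar level (1 called higher). In such bulk tissue, fewer cells of a type and less RNA per cell cannot be told apart.

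Of the members, 4 ligand genes lie in a run on chromosome 5. On the GRCm38 build, Sema3d, Sema3a, Sema3e and Sema3c fall in this order between 12383161 and 17730268, a span of 5.35 Mb. Sema3d, Sema3a and Sema3e, which were all lower at the lumbar level, are shown by the 250 bases before the transcript start that the RefSeq promoter table lists for each, at chr5:12382916-12383165, chr5:13396534-13396783 and chr5:14025026-14025275, all on the plus strand (RefSeq, GRCm38.p6). For Sema3a this start lies inside the annotated gene, which begins at 13124822, and the window of Sema3d runs a few bases past the annotated gene start at 12383161. The capitals mark TAAT, the core recognised by homeodomain proteins, or its complement ATTA.
Sema3d: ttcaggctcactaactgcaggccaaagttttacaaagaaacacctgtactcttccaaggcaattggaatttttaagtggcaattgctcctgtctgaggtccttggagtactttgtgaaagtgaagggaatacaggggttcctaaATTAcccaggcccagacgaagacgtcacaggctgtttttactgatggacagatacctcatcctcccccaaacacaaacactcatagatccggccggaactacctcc
Sema3a: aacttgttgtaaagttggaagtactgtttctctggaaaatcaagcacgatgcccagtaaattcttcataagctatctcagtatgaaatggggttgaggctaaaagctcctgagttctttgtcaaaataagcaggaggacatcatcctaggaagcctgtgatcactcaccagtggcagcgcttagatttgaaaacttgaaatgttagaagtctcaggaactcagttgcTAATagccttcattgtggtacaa
Sema3e: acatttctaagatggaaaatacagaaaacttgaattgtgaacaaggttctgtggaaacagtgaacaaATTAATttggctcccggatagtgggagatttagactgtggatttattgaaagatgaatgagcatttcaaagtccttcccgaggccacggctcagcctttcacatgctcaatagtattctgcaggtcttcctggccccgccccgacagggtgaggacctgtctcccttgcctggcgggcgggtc
In Sema3e a pair of overlapping matches on opposite strands starts 183 and 181 bases upstream of the listed start. Sema3a and Sema3d each hold 1 match, 23 and 106 bases before theirs. The tetramer was searched on both strands in the 8 members that had an entry and was found in 6 of them, Nrp1 and Plxnd1 being without it, against 55.3% of 27025 promoters of the same length. The longer motif CTAATG was in none of the 8, against 6.48% of all promoters. These matches describe the letters of the windows and are not evidence of binding.

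**Figure D1:**
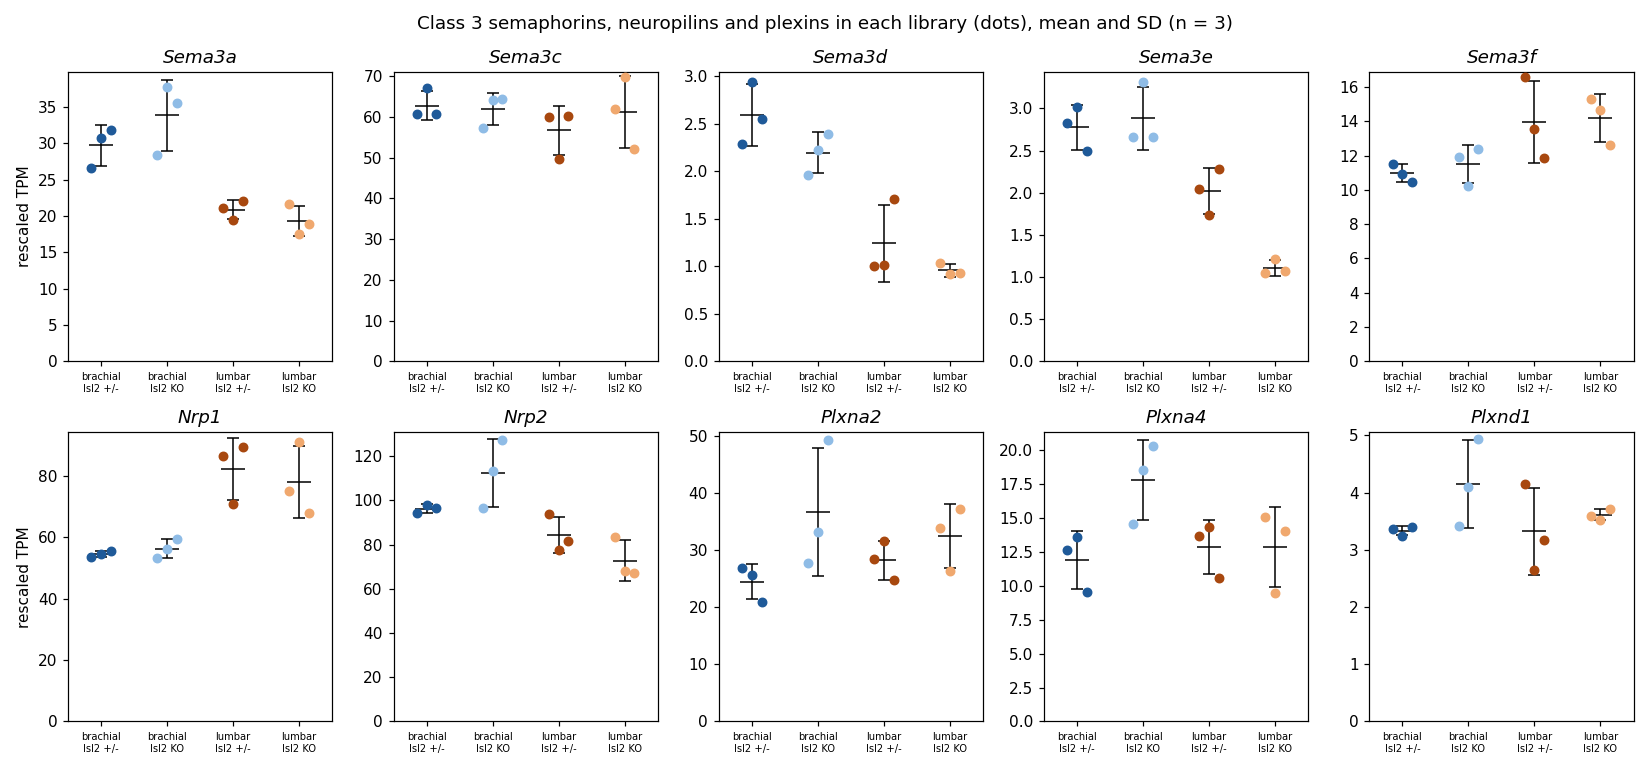
Level of each of the 10 genes in every library. The vertical axes give rescaled TPM and start at 0, the horizontal positions are the 4 groups, each dot is 1 library, and the bars are the mean and SD of 3 libraries. Sema3e separates the lumbar Isl2 KO libraries (1.04 to 1.22 TPM) from all others. Sema3a, Sema3d, Sema3e, Nrp1 and Nrp2 separate the levels, Nrp2 only narrowly (93.6 and 94.2 TPM).

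The ligands spanned a wide range of levels. Sema3c was the most abundant of them in each library and made up 54.5 to 58.5% of the summed TPM of the 5 ligands at the brachial level and 58.2 to 67.1% at the lumbar level. Its level ranged from 57.4 to 67.0 TPM over the 6 brachial libraries (median 62.5) and from 49.7 to 69.8 TPM over the 6 lumbar libraries (median 60.3). These ranges overlap, and neither genotype nor level moved Sema3c past a threshold. Sema3a followed at 26.6 to 37.8 TPM in brachial and 17.5 to 22.1 TPM in lumbar libraries, then Sema3f at 10.2 to 12.4 and 11.8 to 16.6 TPM. Sema3e and Sema3d were the lowest members in every group, with group means between 0.957 and 2.88 TPM. Their ranges overlapped in brachial controls but not in the other groups, where Sema3e lay above Sema3d.

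Among the receptors, Nrp2 was the most abundant member at the brachial level, at 94.2 to 127 TPM, above Sema3c and above Nrp1, which stood at 53.3 to 59.5 TPM. At the lumbar level the neuropilins met: Nrp1 stood at 68.1 to 91.2 TPM and Nrp2 at 67.0 to 93.6 TPM, and their ranges overlapped within each genotype. Plxna2, a signalling partner of the neuropilins, ranged from 21.0 to 49.3 TPM over all libraries. Plxna4, the class A plexin best known for relaying Sema3a to sensory and sympathetic axons, ranged from 9.48 to 20.3 TPM. Plxnd1, the receptor of Sema3e and also an endothelial gene, was the lowest receptor at 2.64 to 4.94 TPM.

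Sema3e fell in the lumbar cord of Isl2 KO embryos. It measured 2.04, 1.74 and 2.28 TPM in the lumbar controls and 1.04, 1.22 and 1.07 TPM in the lumbar Isl2 KO libraries, so that each Isl2 KO library lay below each control. The means were 2.02 ± 0.27 and 1.11 ± 0.093 TPM (SD, n = 3), and the Isl2 KO mean was 54.9% of the control mean. On the log2 scale the difference was -0.80 (SE 0.21, 95% confidence interval -1.29 to -0.32). It passed the threshold of the study, a log2 change beyond 0.5 with an unadjusted p under 0.05 (limma, p = 0.00503), while an exact permutation test gave 0.1, the smallest p that 3 against 3 libraries allow. It did not pass adjustment over all genes tested (limma, adjusted p = 0.979), which no gene passed, although 4.86% had an unadjusted p under 0.05. Sema3e was the only one of the 10 members called here, and of the 16620 genes tested 0.794% were called lower and 0.981% higher by the same rule. Isl2 KO libraries lay wholly below the controls in 5.52% of genes, and Sema3e was the only member among them. Sema3e is also on the list of lower lumbar genes that the study drew from these libraries, which is therefore not independent evidence.

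The call was kept when any single lumbar library was left out, with log2 differences between -0.90 and -0.72, and under all other settings tried, but with a pseudocount of 1 the difference was -0.51, close to the threshold. The lowest mean coverage per base behind it was 2.76, in a lumbar Isl2 KO library. Of the 8 motor neuron markers 1 was called lower at the lumbar level, the intermediate filament gene Prph (log2 -0.78), and none was called higher. All 8 had negative estimates, up to -0.02 for Mnx1, and the median log2 difference of the list was -0.28. Slc5a7 (-0.35) and Isl1 (-0.31) also had an unadjusted p under 0.05 (limma), while Chat (-0.40) did not. Their summed level was 254 to 333 TPM in lumbar controls and 196 to 271 TPM in lumbar Isl2 KO libraries, ranges that overlap. The summed blood genes were 2381 to 3802 TPM in lumbar controls and 3071 to 4882 TPM in lumbar Isl2 KO libraries. The part of these cells in the Sema3e result was not tested.

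At the brachial level Sema3e did not move beyond the spread of the libraries. It measured 2.83, 3.02 and 2.49 TPM in controls and 2.66, 3.32 and 2.66 TPM in Isl2 KO libraries, and the log2 difference was 0.05 (95% confidence interval -0.35 to 0.44, adjusted p = 0.903). The ranges overlap, and 1 Isl2 KO library lay above all controls. The difference between the lumbar and the brachial effect was tested as an interaction and came to -0.85 on the log2 scale (SE 0.24, 95% confidence interval -1.37 to -0.33, limma, adjusted p = 0.812). No gene of 16698 passed an adjusted p of 0.05 in this test, and 4.42% (738 genes) had an unadjusted p under 0.05, among them 2 of the 10 members, Sema3e and Nrp2. On leaving out 1 library the number of such genes ran from 386, without brachial control replicate 3, to 2100, without brachial Isl2 KO replicate 1.

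The other 4 ligands were not called at the lumbar level. Sema3d measured 1.0, 1.01 and 1.71 TPM in lumbar controls and 1.03, 0.912 and 0.926 TPM in lumbar Isl2 KO libraries (log2 -0.30, 95% confidence interval -0.95 to 0.34). Here 1 control library stood above the other 5 libraries, and the groups overlapped. The differences of Sema3a (-0.11), Sema3c (0.11) and Sema3f (0.03) were each within an interval that included 0. None of the 5 ligands was called at the brachial level, where the log2 differences ran from -0.23 for Sema3d to 0.18 for Sema3a.

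**Figure D2:**
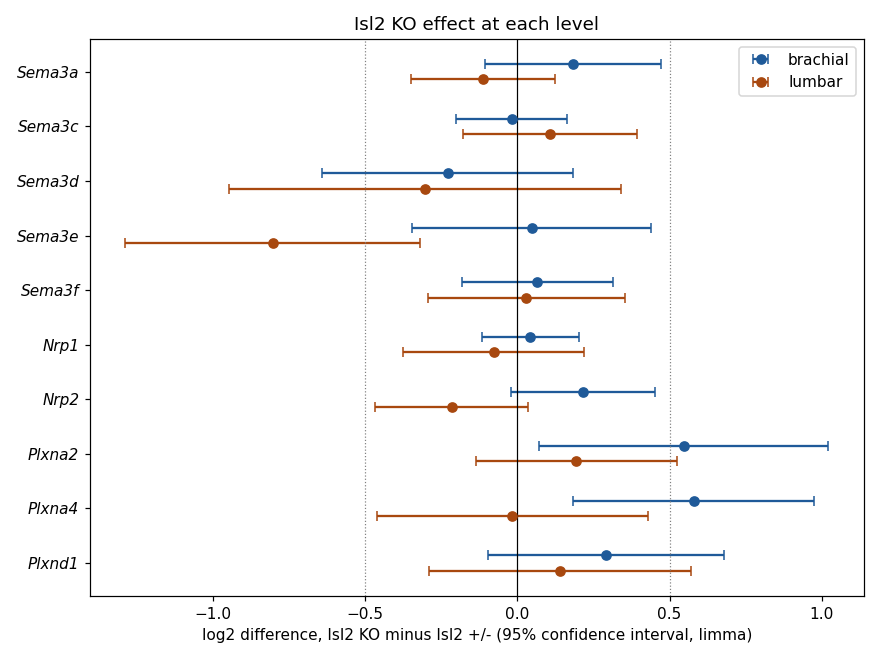
Log2 difference between Isl2 KO and Isl2 +/- libraries for each gene, with blue points for the brachial and brown points for the lumbar level. Bars are 95% confidence intervals from limma, and dotted lines mark a log2 change of 0.5 in either direction. Sema3e lies at -0.80 at the lumbar level and at 0.05 at the brachial level, and Plxna2 and Plxna4 lie at 0.55 and 0.58 at the brachial level.

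The neuropilins were not called at either level. Nrp2, the receptor preferred by Sema3f, measured 94.2, 98.0 and 96.5 TPM in brachial controls and 96.6, 113 and 127 TPM in brachial Isl2 KO libraries (log2 0.21). In the lumbar cord it measured 93.6, 77.7 and 81.7 TPM in controls and 83.3, 67.8 and 67.0 TPM in Isl2 KO libraries (log2 -0.22). The groups overlap at both levels, and the estimates have opposite signs. Their difference was -0.43 (SE 0.16, 95% confidence interval -0.78 to -0.09, limma, adjusted p = 0.812). Nrp1, the receptor preferred by Sema3a, had log2 differences of 0.04 (brachial) and -0.08 (lumbar), with intervals of -0.12 to 0.20 and -0.38 to 0.22.

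Of the 3 plexins, Plxna4 and Plxna2 were called higher in the brachial Isl2 KO libraries. Plxna4 measured 12.6, 13.6 and 9.51 TPM in controls and 14.6, 18.5 and 20.3 TPM in Isl2 KO libraries, a log2 difference of 0.58 (SE 0.17, limma, p = 0.0101, exact permutation p = 0.1, adjusted p = 0.357). Plxna2 measured 27.0, 25.7 and 21.0 TPM in controls and 27.7, 33.2 and 49.3 TPM in Isl2 KO libraries, a log2 difference of 0.55 (SE 0.20, limma, p = 0.0295, exact permutation p = 0.1, adjusted p = 0.357). In both genes each Isl2 KO library lay above each control. These were the 2 members called higher, against 2.21% of the 16768 genes tested, and none was called lower, against 0.871%. Neither passed adjustment, which 1 gene (0.00596%) passed, while 13.9% (2330 genes) had an unadjusted p under 0.05. That number ran from 785 without control replicate 3 to 4357 without Isl2 KO replicate 1. On TPM as deposited, where the median of all genes is 0.16 in place of -0.01, the counts over all genes move from 146 lower and 371 higher to 47 and 1211, and the same 2 members are called. Plxnd1 measured 3.36, 3.25 and 3.39 TPM in controls and 3.41, 4.1 and 4.94 TPM in Isl2 KO libraries (log2 0.29, adjusted p = 0.410). Its groups were also separate, so 3 of 10 members lay wholly above the controls, against 9.67% of all genes tested.

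Both plexin calls were lost on leaving out either of 2 libraries. Without the brachial Isl2 KO replicate 3, the library of least depth, the log2 differences were 0.31 for Plxna2 and 0.48 for Plxna4, and without the brachial control replicate 3 they were 0.44 and 0.43, and neither gene was called in either case. Plxna4 then missed only the log2 change of 0.5, its unadjusted p staying under 0.05 in every setting, whereas that of Plxna2 rose above 0.05 in both. Plxna2 also lost its call with the replicate number as a block (unadjusted p above 0.05, limma, adjusted p = 0.359), and its groups came as close as 27.0 and 27.7 TPM. At the lumbar level Plxna2 (0.19), Plxna4 (-0.02) and Plxnd1 (0.14) were not called, and the difference between levels did not pass its threshold for any of them (Plxna4 -0.60, 95% confidence interval -1.21 to 0.02, limma, adjusted p = 0.812).

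Transcript length moved with the brachial comparison. Among protein-coding genes the median log2 difference between Isl2 KO and control libraries was -0.17 for longest transcripts under 2000 bases (n = 2997) and rose through -0.04, 0.08 and 0.20 in the classes between to 0.30 for transcripts of 8000 bases or more (n = 806). In that last class 9.93% of genes were called higher. Plxna2 and Plxna4 have the longest transcripts of the 10 members, 11040 and 12877 bases, and belong to it, while Sema3f and Nrp1 are the shortest at 3395 and 3597 bases. In single libraries the median deviation of the long genes from their brachial mean was -0.13, -0.06 and -0.25 in controls and -0.08, 0.18 and 0.33 in Isl2 KO libraries, and Isl2 KO replicates 2 and 3 were those with the highest plexin levels. At the lumbar level the same medians ran only from -0.04 to 0.04. Of the 4 members in the class between 6000 and 8000 bases, whose brachial median was 0.20 (25th to 75th percentile 0.08 to 0.32), Nrp2 (6723 bases) and Plxnd1 (6907 bases) lay within that range at 0.21 and 0.29. Sema3d (6307 bases) and Sema3e (6861 bases) lay below it at -0.23 and 0.05. The summed blood genes ran from 2367 to 3940 TPM in brachial controls and from 3348 to 6671 TPM in brachial Isl2 KO libraries. Summed progenitor markers were 2338 to 2671 and 1763 to 2320 TPM, and summed motor neuron markers 507 to 522 and 454 to 489 TPM. Neither list overlapped, but no gene of either was called, and the median log2 differences were 0.02 and 0.07. Without Prph the motor neuron ranges overlapped, at 200 to 211 and 198 to 231 TPM. Summed endothelial markers were 108 to 114 and 78.9 to 108 TPM. The part of length or of these cells in the brachial results, and in the interactions that draw on them, was not tested. The lumbar fall of Sema3e, whose longest transcript has 6861 bases, stood beside a class median of 0.02. The part of length in that fall was not tested either.

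**Figure D3:**
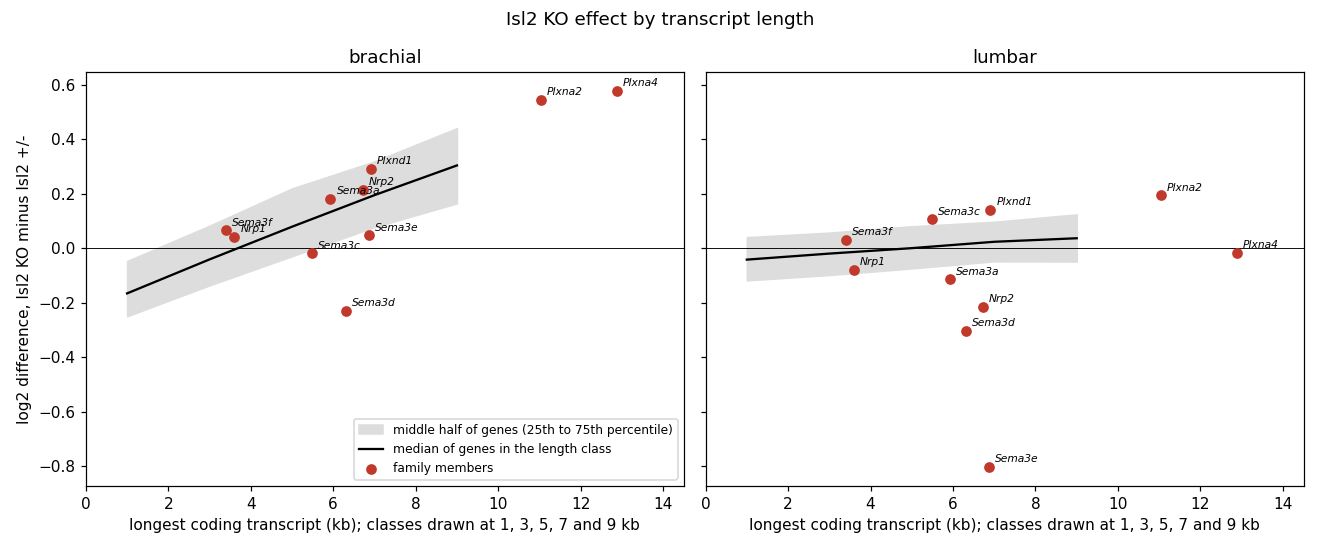
Log2 difference between Isl2 KO and Isl2 +/- libraries against the length of the longest coding transcript, at the brachial (left) and lumbar (right) level. The line is the median and the band the 25th to 75th percentile of protein-coding genes in 5 length classes, and the points are the 10 genes. Plxna2 (11040 bases) and Plxna4 (12877 bases) lie farthest to the right. The brachial line climbs from -0.17 to 0.30 and the lumbar line from -0.04 to 0.04, while Sema3e lies at -0.80 in the lumbar panel.

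At an adjusted p under 0.05, axial level separated 6 of the members. In a fit of all libraries that also held genotype, these 6 of 10 stood against 18.5% of 16698 genes tested. Of these, Sema3d, Sema3e, Sema3a and Nrp2 were lower, as were 9.62% of all genes, and Nrp1 and Sema3f were higher, as were 8.91%. On TPM as deposited, where the median of all genes is -0.13 in place of 0.01, the counts over all genes move from 1607 lower and 1488 higher to 2214 and 646, and of the 6 members only Sema3f loses its call. In 5 of the 6, all but Sema3f, no lumbar library overlapped a brachial one, against 8.31% of all genes. For Nrp2 the gap was narrow, between 93.6 TPM in a lumbar control and 94.2 TPM in a brachial control.

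Sema3d, a ligand also known from heart and vessel development, was the most unequal member in the fit over both genotypes. It ranged from 1.96 to 2.94 TPM over the brachial libraries (median 2.34) and from 0.912 to 1.71 TPM over the lumbar libraries (median 1.01), a log2 difference of -1.08 (SE 0.15, limma, adjusted p = 0.00066). Sema3a ranged from 26.6 to 37.8 TPM (median 31.3) and from 17.5 to 22.1 TPM (median 20.3), a log2 difference of -0.65 (SE 0.09, adjusted p = 0.000722). It was called in controls alone (-0.51, adjusted p = 0.0324) and in Isl2 KO libraries alone (-0.80, adjusted p = 0.0408). Each lumbar library was below each brachial one in both genes, and in Sema3d the smaller fits gave -1.04 in controls (adjusted p = 0.0664) and -1.11 in Isl2 KO libraries (adjusted p = 0.0505).

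The level difference of Sema3e had a larger estimate in the Isl2 KO libraries than in controls. That contrast is the interaction given above (-0.85), which did not pass adjustment (limma, adjusted p = 0.812). The overall difference of Sema3e was -0.87 (SE 0.16, limma, adjusted p = 0.00372). It came to -0.45 in controls alone (adjusted p = 0.197) and to -1.30 in Isl2 KO libraries alone (adjusted p = 0.0408). In controls the brachial libraries, at 2.49 to 3.02 TPM, still lay above the lumbar ones, at 1.74 to 2.28 TPM. Nrp2 had estimates of -0.41 overall (SE 0.10, limma, adjusted p = 0.0121), -0.19 in controls (adjusted p = 0.218) and -0.63 in Isl2 KO libraries (adjusted p = 0.0517). Its interaction (-0.43) did not pass adjustment either (limma, adjusted p = 0.812).

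Nrp1 went the other way. It ranged from 53.3 to 59.5 TPM over brachial libraries (median 55.1) and from 68.1 to 91.2 TPM over lumbar libraries (median 80.8), a log2 difference of 0.52 (SE 0.08, adjusted p = 0.000995). In controls alone the difference was 0.58 (adjusted p = 0.0226), and in Isl2 KO libraries alone 0.46 (adjusted p = 0.0729). The ratio of Nrp1 to Nrp2 was 0.468 to 0.577 in brachial and 0.901 to 1.34 in lumbar libraries. Sema3f was higher by 0.32 (SE 0.09, adjusted p = 0.0237), with ranges that overlapped, and it lost its call on TPM as deposited (0.18) and without brachial control replicate 2, brachial Isl2 KO replicate 2 or lumbar Isl2 KO replicate 1 (0.28 to 0.31). The ratio of Sema3a to Sema3f was 2.31 to 3.69 in brachial and 1.19 to 1.86 in lumbar libraries. For all 6 genes the exact permutation test, with libraries exchanged between levels within each genotype, gave 0.005, the smallest p it allows. These tests treat the 12 libraries as independent, which shared embryos would violate.

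The remaining members did not pass the test by level. The estimates were -0.09 for Sema3c (95% confidence interval -0.25 to 0.08), -0.18 for Plxna4 (-0.53 to 0.16), -0.10 for Plxnd1 (-0.36 to 0.16) and 0.03 for Plxna2 (-0.28 to 0.34). Cell type markers also differed between the levels. Lower in lumbar libraries were 2 of 8 motor neuron markers, Prph (-2.62) and Slc5a7 (-1.10), 4 of 8 endothelial, 3 of 5 tested mesenchymal, 3 of 5 microglial, 2 of 6 dorsal neuron and 1 of 4 tested Schwann cell and crest markers, with none higher in these lists, while of 8 progenitor markers 2 were lower and 3 higher. Summed motor neuron markers were 454 to 522 TPM in brachial and 196 to 333 TPM in lumbar libraries. Prph alone made up 224 to 318 and 30.9 to 76.4 TPM of this, and the other 7 markers overlapped at 198 to 231 and 162 to 257 TPM. Summed endothelial markers were 78.9 to 114 and 73.0 to 87.9 TPM. The part of these cells in the level differences was not tested.

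**Figure D4:**
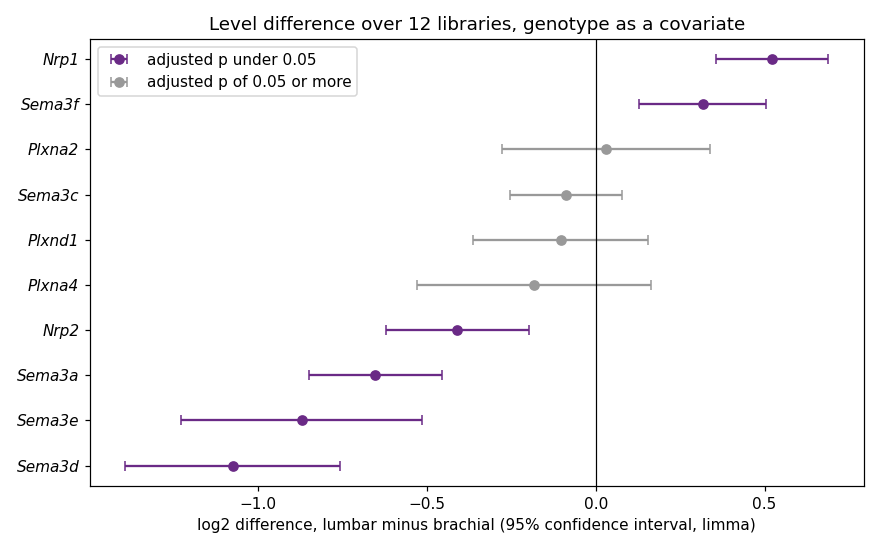
Log2 difference between lumbar and brachial libraries for each gene over 12 libraries, from a fit that also held genotype. Bars are 95% confidence intervals from limma, purple marks an adjusted p under 0.05 and grey an adjusted p of 0.05 or more. Nrp1 (0.52) and Sema3f (0.32) lie above 0, and Sema3d (-1.08), Sema3e (-0.87), Sema3a (-0.65) and Nrp2 (-0.41) lie below it.

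Of 35 other genes of the pathway, 33 were tested. At the lumbar level none was called between genotypes, and their median log2 difference was -0.03 against -0.01 for all genes. At the brachial level 5 were called higher and none lower: the ligand Sema3b (0.73), the adhesion molecule Nfasc (0.56), the actin regulator Mical3 (0.56), the kinase Gsk3b (0.70) and the small GTPase Rras (0.92), each with an adjusted p of 0.357. Of all genes, 2.21% were called higher and 0.871% lower in this comparison. Sema3b and Rras were low, with means of 2.71 and 0.813 TPM in controls and 4.70 and 1.61 TPM in Isl2 KO libraries. The 371 genes called higher became 142 without control replicate 3 and 147 without Isl2 KO replicate 3. The pathway calls were not repeated without single libraries, and the part of length in them was not tested. The remaining class A plexins had positive estimates without a call, Plxna1 at 0.49 and Plxna3 at 0.35, and the ligand Sema3g stood at -0.06. Between levels 4 were lower and 3 higher in the lumbar cord, and these 7 of 33 are close to the 18.5% of all genes called by level. Kdr (-0.36) and Flt1 (-0.52), the VEGF receptors of vessels, were among the lower ones with the kinase Fyn (-0.16) and the Cdk5 activator Cdk5r1 (-0.18). Chl1 (0.51), a cell adhesion co-receptor of Nrp1, was higher, as were Dpysl4 (0.31), a cytoplasmic mediator of semaphorin signals, and Mical1 (0.20).

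Protein-coding genes whose log2 levels followed a member most closely over the 12 libraries were listed as a description, since the libraries share levels and genotypes. For Sema3e they were Pnmt (Pearson r 0.97, mean level 0.516 TPM), Slc44a5 (0.96) and Fam184b (0.96). Those nearest to Sema3a were Syt4, Nxph1 and Grk3 (all 0.97), and to Sema3d Bcam (0.96), Rgs7 (0.95) and Ak7 (0.94). Nrp2 was followed by Mtss1 (0.98), Epb41l1 (0.97) and Aldh5a1 (0.97), and Nrp1 by Nkx1-2 (0.95), Ror2 (0.94) and Arhgap28 (0.94). Plxna2 had the closest companions of all members, Nhsl1, Elavl1 and Brwd3 (each 0.99). Plxna4 was followed by Thsd7a (0.97), Ttbk2 (0.96) and Hnrnpul2 (0.96), and Sema3f by Scube3 (0.93), Meis1 (0.91) and Lhx5 (0.91). The weakest companions were those of Sema3c (Plekhh2 0.89, Eml3 0.89, Xylt2 0.88) and Plxnd1 (Elp4 0.93, 2310061I04Rik 0.90, Tmem104 0.90).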

How the data were processed

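Total RNA libraries (TruSeq Stranded Total RNA with Ribo-Zero) from the ventral spinal cord of E12.5 embryos, 3 per level and genotype, were analysed. According to the submitters' processing notes, reads were handled with FastQC 0.11.7, Trimmomatic 0.38, HISAT2 2.1.0, Bowtie2 2.3.4.1 and StringTie 2.1.3b on mm10. The authors deposited TPM, FPKM and per-base coverage (a signal not scaled to depth) for 45777 NCBI gene identifiers per library, estimated by StringTie with no counts, so a log-scale test stood in for the count test of the study. Aligned sequence (4.48 to 6.64 Gb) was recovered from the ratio of deposited coverage to FPKM. RefSeq symbols matched 45679 identifiers, 96.1% of all identifiers having the same coordinates in GRCm38.p6, and 6 identifiers on more than one line were summed.

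TPM values were rescaled by median-of-ratios size factors over the 12 libraries, because small structural RNAs held 23.7 to 38.2% of TPM. log2(TPM + 0.1) was fitted across all genes with a mean of at least 0.5 TPM by limma 3.58.1 (R 4.3.3, lmFit and eBayes with trend), with Benjamini-Hochberg adjustment over all genes tested. Log2 differences are on this scale and understate changes of low genes. Genotype was called at a log2 change beyond 0.5 with an unadjusted p under 0.05, and level and the interaction at an adjusted p under 0.05. Exact permutation tests were two-sided. The limma p-values set a difference against the variation between libraries, which is drawn toward a trend over all genes. The study names 3 animals per genotype for the 6 libraries of each, so brachial and lumbar libraries may share animals, which the level and interaction fits could not take into account. Same-numbered libraries were not treated as pairs: the correlation of their deviations between genotypes was 0.08, 0.23 and 0.01 at the brachial and 0.14, -0.21 and -0.09 at the lumbar level, that between brachial and lumbar libraries was -0.02, 0.20 and 0.34 in Isl2 +/- and 0.03, -0.21 and 0.07 in Isl2 KO, and same-numbered brachial and lumbar libraries agreed in the Y-linked gene Ddx3y in 3 of 6 cases. Ddx3y was found in 2 of 3 Isl2 KO libraries at both levels, but in 2 of 3 brachial and 1 of 3 lumbar Isl2 +/- libraries, so the Isl2 +/- libraries of both levels cannot all come from the same 3 embryos. Members and gene lists were chosen with earlier results of these data known. All members are named. Pathway genes are named where called or where they are the remaining class 3 ligands or class A plexins, and the 3 protein-coding genes of highest Pearson correlation are named for each member. Transcript lengths are those of the longest coding transcript in GENCODE M21. Alternatives were pseudocounts, filters, scalings, coverage in place of TPM, no trend, a replicate block and leaving out each library. FPKM served only for the depth.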

Additional observations from a re-analysis of the deposited data

Results flagged for a closer look

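The difference of the Isl2 KO effect between levels was singled out for 2 members, on the unadjusted p of the interaction. For Sema3e it was -0.85 on the log2 scale, from a lumbar effect of -0.80 and a brachial effect of 0.05. Over all alternatives it ran from -1.01 to -0.55, with limma unadjusted p between 0.0008 and 0.013 and adjusted p between 0.369 and 0.995. For Nrp2 it was -0.43, from a lumbar effect of -0.22 and a brachial effect of 0.21. Its alternatives ran from -0.60 to -0.34, with limma unadjusted p between 0.0036 and 0.050. Both genes have transcripts of 6000 to 8000 bases, a class with a brachial median of 0.20, near the brachial effect of Nrp2 and above that of Sema3e, and the part of length was not tested. Neither passed adjustment over all genes, whereas an unadjusted p under 0.05 was reached by 738 genes (4.42%), a number that ran from 386 without brachial control replicate 3 to 2100 without brachial Isl2 KO replicate 1.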

How the results depend on the processing

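The lumbar count of members called stayed at 1 and the interaction count at 0 in every setting, leaving out each library included. The brachial count of 2 became 1 without the mean-variance trend and 1 with a replicate block, Plxna2 losing its call in both, and ran from 0 to 2 when each library was left out. The replicate block changed no other call of a member. The level count of 6 became 2 in controls alone and 2 in Isl2 KO libraries alone, fits of fewer samples, and ran from 5 to 6 on leaving out a library. The fits within a genotype, with embryo sex as a term, with size factors within a level and with size factors from protein-coding genes were chosen after seeing the data.

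Estimates near 0 changed sign. Brachial Sema3c became 0.16 on TPM as deposited and 0.035 with quantile normalization, and brachial Sema3e -0.0084 with quantile normalization. Lumbar Sema3f became -0.015 on coverage and lumbar Nrp1 0.032 with embryo sex. The interaction of Sema3c became -0.039 on TPM as deposited and that of Sema3f 0.011 with quantile normalization. The level difference of Plxna2 became -0.11 on TPM as deposited and -0.15 in Isl2 KO libraries. That of Plxna4 became 0.11 in controls and reached -0.48 at the other end of the settings. On leaving out a library, brachial Sema3c ran from -0.048 to 0.035, brachial Sema3e from -0.055 to 0.11, lumbar Sema3f from -0.082 to 0.16, lumbar Nrp1 from -0.19 to 0.015, lumbar Plxna4 from -0.15 to 0.19, lumbar Plxnd1 from -0.0071 to 0.31, the interactions of Sema3d from -0.20 to 0.16, Sema3f from -0.15 to 0.093 and Plxnd1 from -0.30 to 0.015, and the level difference of Plxna2 from -0.037 to 0.15. The cause was not tested. Of the single-gene values, 333 of those leaving out a library and 479 of the others kept direction and call, 20 and 10 reversed, and 7 and 11 lost a call.

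Over all genes, the brachial counts of 146 lower and 371 higher became 47 and 1211 on TPM as deposited. They became 91 and 250 with a pseudocount of 1, 285 and 508 without a filter, 136 and 142 without control replicate 3, 336 and 1046 without Isl2 KO replicate 1, and 134 and 147 without Isl2 KO replicate 3. The lumbar counts of 132 and 163 became 76 and 103 with a pseudocount of 1, 288 and 332 without a filter, 225 and 189 with embryo sex as a term, and 148 and 303 without Isl2 KO replicate 2. The level counts of 1607 and 1488 became 2214 and 646 on TPM as deposited, 327 and 161 in controls alone, 161 and 137 in Isl2 KO libraries alone, 1121 and 940 without brachial control replicate 2, and 1115 and 978 without brachial Isl2 KO replicate 2. Genes with an unadjusted p under 0.05 in the interaction, 738, ran from 386 to 2100 on leaving out a library and were 1224 without a filter. At the brachial level they were 2330 and ran from 785 to 4357, and at the lumbar level 808 became 1215 without a filter.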

Other observations

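The Y-linked gene Ddx3y was at 0 in some libraries and at 32.1 TPM or more in the rest: 2 of 3 brachial control, 2 of 3 brachial Isl2 KO, 1 of 3 lumbar control and 2 of 3 lumbar Isl2 KO libraries carried it. At the lumbar level 3 members did not overlap between the 3 libraries without and the 3 libraries with it. Nrp1 was 86.6 to 91.2 TPM without and 68.1 to 75.1 TPM with Ddx3y. Plxna2 was 24.8 to 28.4 TPM without and 31.6 to 37.3 TPM with it, and Plxna4 was 9.48 to 13.7 and 14.05 to 15.1 TPM. Of all genes tested, 14.3% did not overlap in this way at the lumbar and 11% at the brachial level. At the brachial level all 10 members overlapped between the 2 libraries without and the 4 libraries with Ddx3y.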
